A study of Homo sapiens with 45 samples.

Results

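The genes described here are 30 genes of extracellular proteolysis: 22 matrix metalloproteases (MMPs), the 4 tissue inhibitors of metalloproteases (TIMP1 to TIMP4), the plasminogen activators PLAU (urokinase) and PLAT (tissue-type), the urokinase receptor PLAUR and the serpin SERPINE2. They were taken by name from 41582 genes, and the estimated counts and TPM (transcript abundance scaled for length and library size) of all RefSeq transcripts of a symbol, 110 transcripts in all, were summed. The study sequenced poly(A) RNA of human sarcoma cell lines in 45 libraries, 3 per group. There were 7 lines of Ewing sarcoma (TC71, SKES1, RDES, MHHES1, EW24, EW3 and A673) and 6 of osteosarcoma (U2OS, SAOS2, MG63, KHOS, HOS-MNNG and G292). A further 2 groups held an A673 derivative with sh908, a doxycycline-inducible hairpin against the potassium channel gene KCNN1, either left uninduced or given the drug (induced). Per the labels, the 13 parental lines carried no hairpin and received no drug. The G292 and HOS-MNNG cultures are cloned sublines, and HOS-MNNG and KHOS both derive from the HOS line. The labels do not say whether the sh908 cells are 1 clone, nor give the dose or duration of doxycycline, and no hairpin-free culture with doxycycline is among the groups. Nor do they say that the 3 libraries of a group came from separate cultures, so p-values between libraries measure only the spread between these samples, which may be technical.

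MMPs are zinc enzymes made as inactive proenzymes that together cut nearly every protein of the extracellular matrix. The collagenases MMP1, MMP8 and MMP13 open fibrillar collagen, the gelatinases MMP2 and MMP9 cut denatured and basement membrane collagen, and the membrane-anchored MMP14 activates pro-MMP2 in a complex with TIMP2. The TIMPs block the active enzymes. PLAU bound to PLAUR turns plasminogen into plasmin, which degrades fibrin and can activate pro-MMPs, while SERPINE2 inhibits thrombin and the plasminogen activators. Bone remodelling uses MMP13, MMP14 and MMP9, and many of these promoters respond to AP-1, the FOS and JUN dimer.

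Libraries summed to 23132161 to 51413254 estimated counts for Ewing sarcoma lines, 15974173 to 44911542 in the osteosarcoma lines and 16619617 to 24818664 in the sh908 groups. Of 7 Ewing sarcoma markers, 4 were higher in the Ewing sarcoma lines (PRKCB, NR0B1, NKX2-2 and STEAP1) and none lower. Of the 6 osteoblast markers tested, 3 were lower there (SPP1, RUNX2 and COL1A1). Of all genes tested, 5.96% were called higher and 8.4% lower there. SPP1 held 56 counts over the Ewing sarcoma lines and PRKCB 38.2 over the osteosarcoma lines. In mean log2(TPM + 1), ALPL (by 1.86) and BGLAP (by 0.059) were higher in Ewing sarcoma lines, uncalled, and the rest of the osteoblast list was lower. Of the 3 blood cell markers, HBB was 0 in every library and the highest PTPRC value was 1.52 TPM. CD68, a macrophage marker that other cells can express, was lower in the Ewing sarcoma lines and took the summed level of the 3 to between 4.26 and 123 TPM in osteosarcoma libraries, against 1.68 to 7.26 TPM in Ewing sarcoma libraries; its part in the results was not tested. The uninduced libraries held 37.8, 35.3 and 17.99 TPM of the hairpin target KCNN1, and the induced libraries 10.2, 13.7 and 7.75 TPM. Replicate 3 stood apart in both sh908 groups.

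Levels of the 30 genes ran from no read to 1514 TPM, as the heat map of levels by line shows. MMP2, MMP14, MMP17, TIMP1, TIMP2, TIMP3, PLAUR and SERPINE2 reached 1 TPM in all 13 lines. MMP8, MMP12, MMP20, MMP21, MMP26 and MMP27 reached it in none. MMP27 had no read in any library, which with a floor of 3 counts over all libraries allows up to 0.00224 CPM, counting error only. MMP26, an endometrial matrilysin, had 19 counts, all in MG63. In at least 1 line, 9 of the genes reached 100 TPM: MMP1, MMP2, MMP14, TIMP1, TIMP2, TIMP3, PLAU, PLAUR and SERPINE2.

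**Figure D1:**
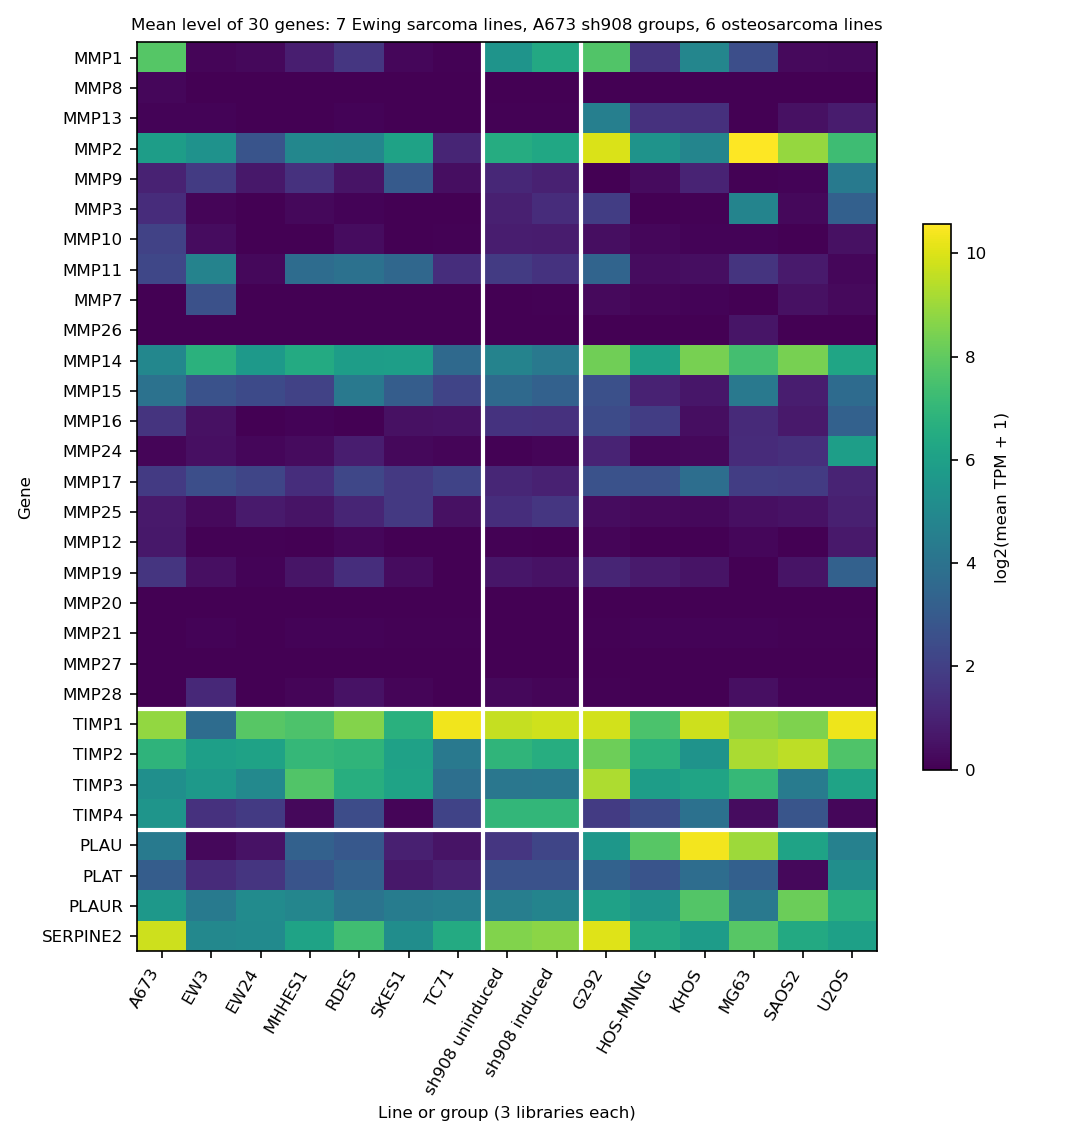
Heat map of the 30 genes (rows, ordered as MMPs, TIMPs and plasminogen system) in 13 lines and the A673 sh908 groups (columns), coloured by log2(mean TPM + 1) over 3 libraries. MMP2 is brightest in MG63 (1514 TPM), PLAU in KHOS (1338 TPM) and TIMP1 in TC71 (1286 TPM), and 6 MMPs stay under 1 TPM in every line.

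Between the tumour types, 7 of the 22 genes with enough counts to be tested were lower in Ewing sarcoma and none was higher. They were the collagenase MMP13, the gelatinase MMP2, the membrane-type MMP14 and MMP24, the inhibitor TIMP2, the activator PLAU and its receptor PLAUR. The log2 fold changes ran from -2.06 (PLAUR) to -6.46 (PLAU), and MMP13 stood at -6.94. MMP13 had 0 to 11 counts in each Ewing sarcoma line and was tested mainly through the osteosarcoma lines. For that reason MMP13 is not read against the shares over all genes. The comparison asked where these genes differ between the 2 kinds of bone sarcoma, and used edgeR's quasi-likelihood test on the summed counts of each line, 7 against 6 lines. A gene was called at a Benjamini-Hochberg false discovery rate (FDR) under 0.05 over all genes tested. Among all 22000 genes tested, 8.4% were called lower and 5.96% higher, 14.4% in all, beside 7 lower (6 without MMP13) and 0 higher of 22 here. At an unadjusted p under 0.05, 10 of the 22 passed, MMP13 among them, as did 29.6% of all genes. DESeq2 called 10 lower, MMP13 among them, and 0 higher. Of all genes it called 13.9% lower, 10.7% higher and 24.6% in either direction. Its calls added MMP1, MMP3, MMP16 and SERPINE2, and MMP24 was given no adjusted p. The 2-sided exact permutation p of log2(TPM + 1), unadjusted, was 0.0117 for MMP14, 0.014 for PLAUR, 0.0181 for MMP2, 0.0216 for MMP24 and 0.042 for TIMP2. The median log2 fold change was -1.37 over the 22 genes, MMP13 included, and -0.06 over all genes tested. In bulk RNA, fewer cells of a type and less RNA per cell cannot be told apart.

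**Figure D2:**
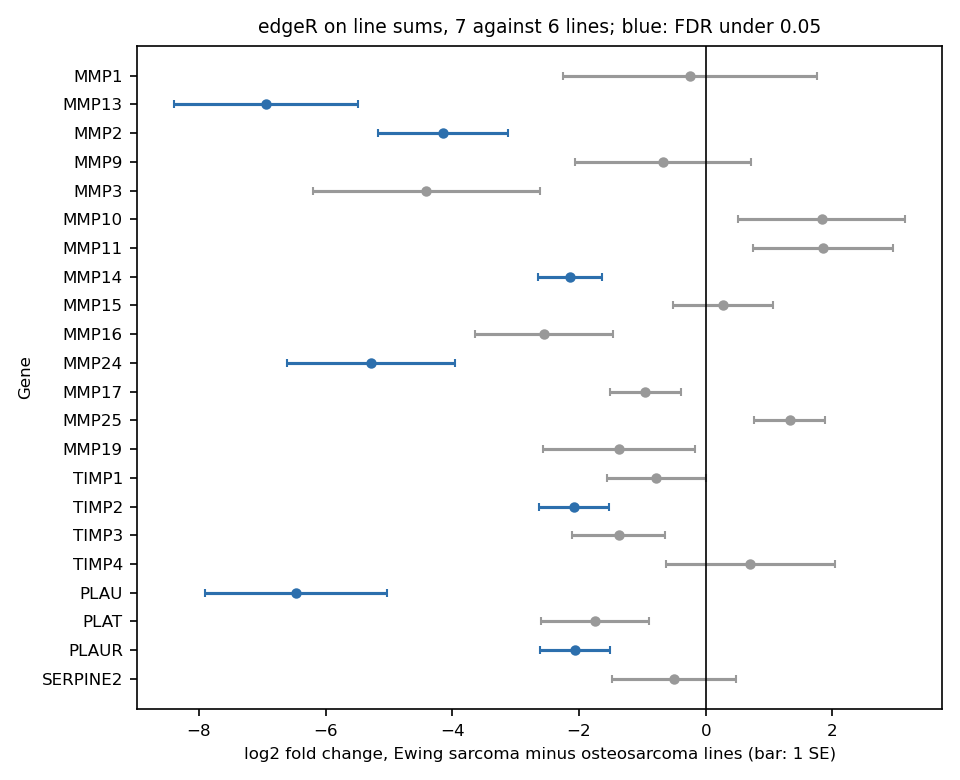
The log2 fold change of 22 tested genes (Ewing sarcoma minus osteosarcoma lines, edgeR on line sums, bars are 1 SE). The 7 blue points, from -6.94 (MMP13) to -2.06 (PLAUR), passed an FDR of 0.05, and the grey points did not.

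PLAU (gene ID 5328, chromosome 10, 73908832 to 73917494 of GRCh38.p14) was the only one of the 30 genes whose line means did not overlap between the tumour types, while 1.66% of the 37387 genes with a count lay apart in that direction, 2.09% in the other and 3.76% in either. Its level ran from 0.177 TPM in EW3 over a median of 0.882 TPM to 18.8 TPM in A673 among the 7 Ewing sarcoma lines. Among the 6 osteosarcoma lines it ran from 23.99 TPM in U2OS over a median of 147 TPM to 1338 TPM in KHOS. The lowest osteosarcoma line therefore lay just above the highest Ewing sarcoma line, and EW3, EW24, SKES1 and TC71 were under 1 TPM. The log2 fold change was -6.46 (SE 1.44, edgeR FDR 0.0102), and the 2-sided exact permutation p of log2(TPM + 1) was 0.000583, the smallest that 7 against 6 lines allow. Leaving out KHOS gave -5.25 (FDR 0.0207) and leaving out A673 gave -7.47 (FDR 0.00743). The permutation test counted HOS-MNNG and KHOS, both derived from HOS, as separate lines. With the 2 summed, edgeR gave -6.05 (FDR 0.0165). One transcript, NM_002658.6, held 85.8% of PLAU TPM in G292 and 99.5% in MHHES1, the lowest and highest shares among the 9 lines with at least 30 PLAU counts in each library. C10orf55 overlaps PLAU in the annotation, and whether the counting used strand is not given in the sources used here.

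PLAUR (gene ID 5329, chromosome 19, 43646095 to 43670169), which holds urokinase at the cell surface, was present in every line. It ran from 15.9 TPM in RDES over a median of 22.3 TPM to 48.2 TPM in A673, and from 18.5 TPM in MG63 over a median of 83.5 TPM to 293 TPM in SAOS2. MG63 and HOS-MNNG (44.04 TPM) lay within the Ewing sarcoma range and the other 4 osteosarcoma lines above it. PLAUR had a log2 fold change of -2.06 (SE 0.55, edgeR FDR 0.0248). It missed the threshold without SKES1 (FDR 0.0503), KHOS (FDR 0.0577) or SAOS2 (FDR 0.0536). The main transcript NM_002659.4 held 54.9% ± 4.47 of PLAUR TPM in SKES1 and 83.5% ± 0.606 in KHOS (SD, n = 3 each). Receptor and ligand did not rank the osteosarcoma lines alike: MG63 had the second PLAU level (519.7 TPM) and the lowest PLAUR level, and SAOS2 the highest PLAUR level beside 69.2 TPM of PLAU.

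PLAT, the activator known for dissolving clots, measured 0.621 TPM (SKES1) to 8.62 TPM (RDES) in Ewing sarcoma lines and 0.176 TPM (SAOS2) to 36.3 TPM (U2OS) in osteosarcoma lines. These ranges overlap and PLAT was not called. SERPINE2, also named protease nexin 1, was not called either. Its 2 highest lines came from different tumours: G292 with 1071 ± 129 TPM and A673 with 869.7 ± 86.9 TPM (SD, n = 3 each). Every other line lay between 29.9 TPM (EW3) and 227 TPM (MG63). The log2 fold change of SERPINE2 was -0.50 (SE 0.98, edgeR FDR 0.777), and without G292 it was 0.84 (FDR 0.595). DESeq2 gave -1.99 (FDR 0.0156). Whether its default outlier handling discounted A673, the highest Ewing sarcoma line, was not tested.

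Promoter windows for 17 of the 30 genes came from RefSeq (GRCh38.p14), and the 250 bases before each start were searched on both strands for the AP-1 motif TGANTCA. It was found in MMP7, MMP10, MMP20 and PLAUR, that is 4 of 17 windows, and in 6.57% of 35116 promoters. The windows below are those of PLAUR, MMP10 and MMP7, which hold a match, and of PLAU and MMP14, which were called lower and hold none in this window. Capitals mark the match, 186 to 180 bases before the start in PLAUR and 67 to 61 bases before it in both MMP10 and MMP7. The positions are chr19:43670170-43670419 (minus strand) for PLAUR, chr11:102780629-102780878 (minus strand) for MMP10, chr11:102530748-102530997 (minus strand) for MMP7, chr10:73910360-73910609 (plus strand) for PLAU and chr14:22836335-22836584 (plus strand) for MMP14. The PLAU window lies inside the gene's annotated span, which starts upstream of it at position 73908832.
PLAUR: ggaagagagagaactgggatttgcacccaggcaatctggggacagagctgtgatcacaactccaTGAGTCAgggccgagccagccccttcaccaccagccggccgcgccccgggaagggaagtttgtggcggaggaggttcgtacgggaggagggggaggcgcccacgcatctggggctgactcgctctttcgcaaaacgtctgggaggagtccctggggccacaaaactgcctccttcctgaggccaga
MMP10: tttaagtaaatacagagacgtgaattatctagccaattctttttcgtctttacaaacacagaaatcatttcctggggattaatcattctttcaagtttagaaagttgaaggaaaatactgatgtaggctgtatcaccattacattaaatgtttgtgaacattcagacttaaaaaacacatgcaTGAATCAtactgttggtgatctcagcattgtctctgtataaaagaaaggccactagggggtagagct
MMP7: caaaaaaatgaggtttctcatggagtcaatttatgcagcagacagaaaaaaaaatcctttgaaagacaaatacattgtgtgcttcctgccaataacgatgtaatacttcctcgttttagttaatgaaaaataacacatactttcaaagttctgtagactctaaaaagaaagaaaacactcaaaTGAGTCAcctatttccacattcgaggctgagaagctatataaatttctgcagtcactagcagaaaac
PLAU: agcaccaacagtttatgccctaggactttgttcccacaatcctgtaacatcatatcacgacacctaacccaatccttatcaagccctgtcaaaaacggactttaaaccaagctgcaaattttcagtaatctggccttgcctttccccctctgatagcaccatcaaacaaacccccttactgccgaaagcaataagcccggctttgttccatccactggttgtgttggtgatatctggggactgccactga
MMP14: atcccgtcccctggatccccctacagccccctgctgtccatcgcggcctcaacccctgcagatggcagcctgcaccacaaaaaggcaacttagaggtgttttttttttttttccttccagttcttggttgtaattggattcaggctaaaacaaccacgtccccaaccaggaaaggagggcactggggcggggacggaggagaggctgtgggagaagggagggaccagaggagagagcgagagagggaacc
The match in MMP7 and PLAUR reads TGAGTCA and that in MMP10 and MMP20 reads TGAATCA. A match describes the letters only. The ETS core GGAA, which EWS-FLI1 also recognises, was in 92.7% of all promoters, and the tandem GGAAGGAA was in 3.06%, among them the MMP14 and TIMP1 windows.

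MMP2 was the most abundant metalloprotease of 4 of the 6 osteosarcoma lines, and the osteosarcoma lines differed widely in it (gene ID 4313, chromosome 16, 55478830 to 55506691). It ran from 1.16 TPM in TC71 over a median of 29.02 TPM to 66.1 TPM in SKES1, and from 27 TPM in KHOS over a median of 314 TPM to 1514 TPM in MG63. KHOS and HOS-MNNG (41.6 TPM) fell within the Ewing sarcoma range, whereas MG63, G292 (1004 TPM), SAOS2 (475 TPM) and U2OS (154 TPM) lay above every Ewing sarcoma line. The log2 fold change was -4.14 (SE 1.03, edgeR FDR 0.0175), called in each of 23 settings with an FDR of 0.0381 at most. Transcripts NM_004530.6 and NM_001302510.2 shared the gene in every line, with 49.2% and 45.7% of TPM in MG63.

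MMP14 (gene ID 4323, chromosome 14, 22836585 to 22847758), the activator of pro-MMP2, was above 10 TPM in every line. Its range was 11.3 TPM in TC71, a median of 57.8 TPM and 108 TPM in EW3, against 63.7 TPM in HOS-MNNG, a median of 238 TPM and 341 TPM in KHOS. HOS-MNNG and U2OS (73.2 TPM) overlapped the Ewing sarcoma lines. Ewing minus osteosarcoma gave -2.14 on the log2 scale (SE 0.50, edgeR FDR 0.0134), called in each of 23 settings. KHOS thus had the highest MMP14 and the lowest osteosarcoma MMP2.

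TIMP2 (gene ID 7077, chromosome 17, 78852977 to 78925387), the third partner of that complex, ran from 18.4 TPM in TC71 over a median of 67.6 TPM to 130.4 TPM in MHHES1, and from 42.3 TPM in KHOS over a median of 252 TPM to 725 TPM in SAOS2. HOS-MNNG (109 TPM) and KHOS again lay within the Ewing sarcoma range. Its log2 fold change came to -2.08 (SE 0.56, edgeR FDR 0.0253), and it missed the threshold without SKES1 (FDR 0.0516), MG63 (FDR 0.0515) or SAOS2 (FDR 0.0534). Over the 6 osteosarcoma lines, log2(TPM + 1) of MMP2 and TIMP2 correlated with a Pearson r of 0.893 and a Spearman rho of 0.829. Without the 2 lines farthest from the median of MMP2, r was 0.57 over 4 lines. Over the 7 Ewing sarcoma lines r was 0.74 and rho 0.143, and r was -0.53 without the 2 farthest lines, so the relation there rested on those lines. MMP14 and MMP2 gave r of 0.648 in Ewing sarcoma and 0.293 in osteosarcoma lines, and 0.432 and -0.60 without the 2 farthest lines. These are descriptions of a few lines and carry no test.

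**Figure D3:**
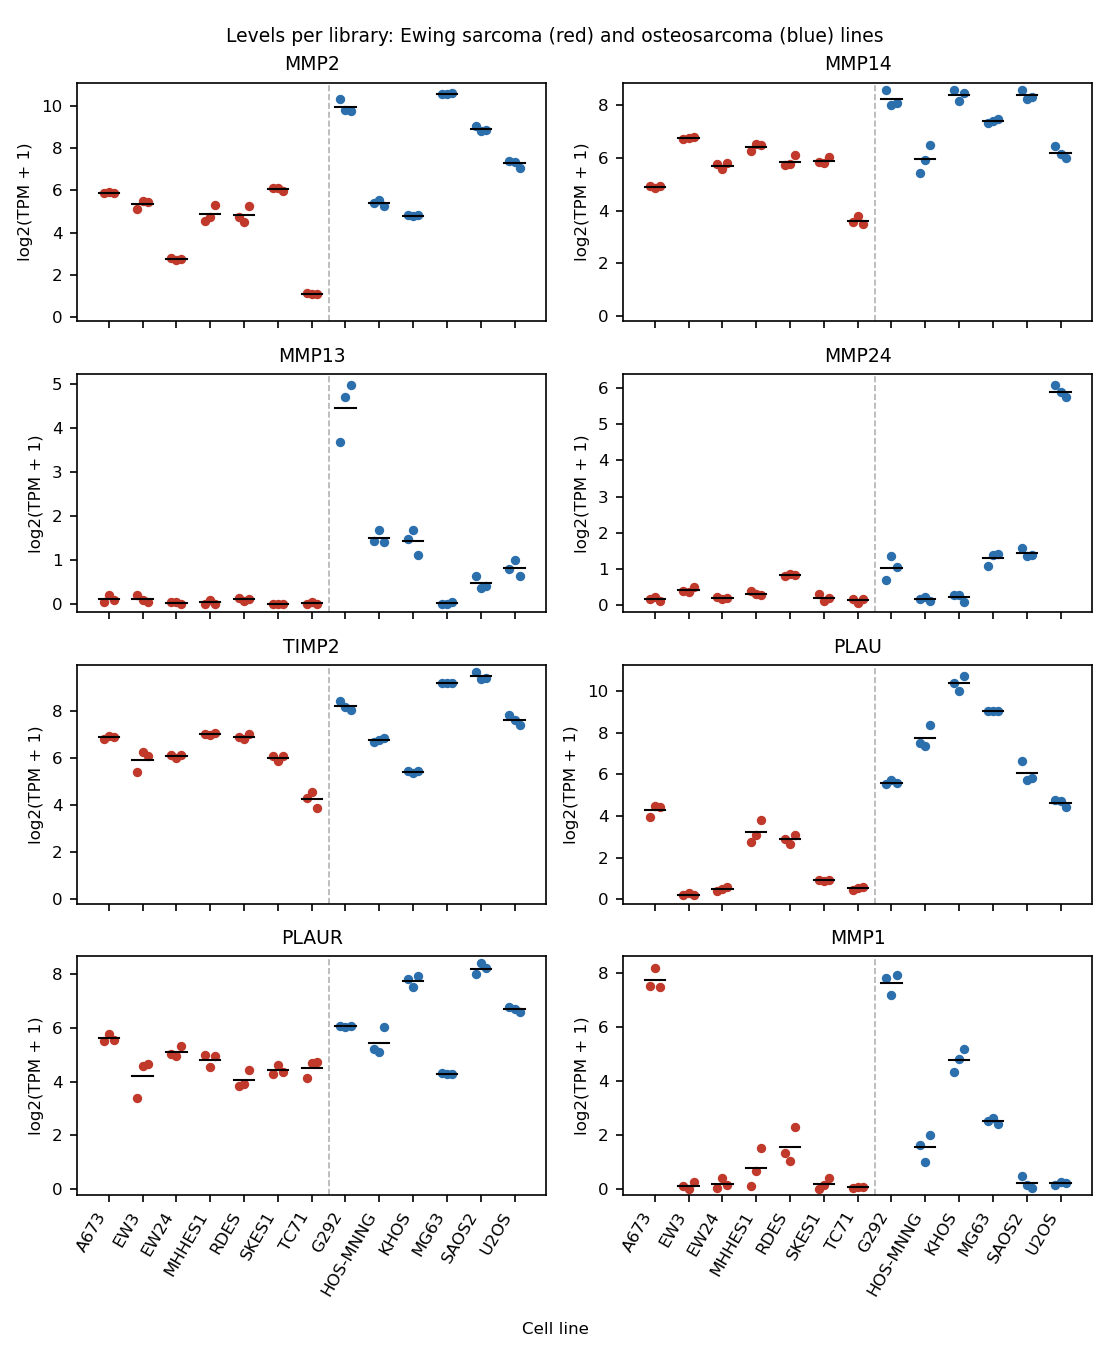
Level of 8 genes in each library of the 13 lines, as log2(TPM + 1), with red points for Ewing sarcoma, blue points for osteosarcoma and a bar at the mean of 3 libraries. The line means of PLAU lie apart between the tumour types, although 1 A673 library (21.4 TPM) is above 1 U2OS library (20.6 TPM). KHOS and HOS-MNNG sit low for MMP2 and TIMP2, MMP24 is high in U2OS alone (58.9 TPM), and MMP1 is high in A673 and G292.

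MMP13 (gene ID 4322, chromosome 11, 102942995 to 102955732), the collagenase of bone and cartilage, was under 0.1 TPM in the Ewing sarcoma lines. Its highest mean there was 0.0765 TPM in EW3, and SKES1 had no read. The osteosarcoma lines ran from 0.00876 TPM in MG63 over a median of 1.24 TPM to 22.5 ± 9.62 TPM (SD, n = 3) in G292. MG63 alone of the osteosarcoma lines lay within the Ewing sarcoma range. On the log2 scale the difference was -6.94 (SE 1.45, edgeR FDR 0.00741), and without G292 it was -4.85 (FDR 0.0104). No Ewing sarcoma line had more than 11 MMP13 counts over its 3 libraries, so the gene passed the filter on low counts mainly through the osteosarcoma lines. Without EW3, without any 1 replicate of every line and in limma it was not tested.

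MMP24 (gene ID 10893, chromosome 20, 35226690 to 35276998), a membrane-type MMP known from the nervous system, was high in U2OS alone, which measured 66.5, 57.7 and 52.3 TPM. The next osteosarcoma line, SAOS2, was at 1.72 TPM and the lowest, HOS-MNNG, at 0.132 TPM, with the Ewing sarcoma lines between 0.0962 TPM (TC71) and 0.787 TPM (RDES). The fit gave a log2 fold change of -5.28 (SE 1.32, edgeR FDR 0.0183), and it was not called without U2OS (-1.98, FDR 0.0645) or by limma on all 39 libraries, with lines as random effects and the replicate block (-2.76, FDR 0.0507). In U2OS the predicted transcript XM_017027598.2 held 83.9% ± 10.3 of MMP24 TPM (SD, n = 3).

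MMP1 (gene ID 4312), the interstitial collagenase, was high in 1 line of each tumour type. A673 measured 183, 294 and 180.1 TPM and G292 measured 223, 145 and 245 TPM. KHOS followed with 27.4 ± 8.11 TPM and MG63 with 4.81 ± 0.517 TPM (SD, n = 3 each), and every other line was at 2.18 TPM or less. The difference in log2 fold change between the tumour types was -0.25 (SE 2.0, edgeR FDR 0.952). It was -6.24 without A673 (FDR 0.0429), 2.02 without G292 (FDR 0.59) and -5.12 with DESeq2 (FDR 0.00174). The DESeq2 value thus lay nearer the edgeR fit without A673 than the one with all lines. DESeq2 was run with its default outlier handling, and whether this discounted A673 was not tested. A673 and G292 were also the 2 highest lines for SERPINE2.

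MMP1 lies on chromosome 11 in a cluster with MMP7, MMP20, MMP27, MMP8, MMP10, MMP3, MMP12 and MMP13, between positions 102520508 and 102955732 of GRCh38.p14. Within the Ewing sarcoma lines, A673 had the highest level of 5 of these 9 genes: MMP1, MMP3 (1.56 TPM), MMP8 (0.141 TPM), MMP10 (3.23 TPM) and MMP12 (0.612 TPM). EW3 had the highest MMP7 (5.09 TPM) and MMP13, and MMP20 and MMP27 were at 0 in all 7. In the osteosarcoma lines the cluster was not led by 1 line. G292 led for MMP1 and MMP13, MG63 for the stromelysin MMP3 (26.2 TPM), U2OS for MMP10 (0.371 TPM) and MMP12 (0.634 TPM), and SAOS2 for MMP7 (0.382 TPM). MMP1 and MMP3 correlated with r of 0.983 over the 7 Ewing sarcoma lines and -0.05 over the 6 osteosarcoma lines, and 0.824 and 0.428 without the 2 lines farthest from the median of MMP1.

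The remaining MMPs were not called by edgeR with all lines. MMP11 (stromelysin 3) ran from 0.164 TPM (EW24) to 25.25 TPM (EW3) in Ewing sarcoma and from 0.138 TPM (U2OS) to 9.59 TPM (G292) in osteosarcoma lines. Leaving out G292 turned it into the only gene of the 30 called higher in Ewing sarcoma, with a log2 fold change of 3.55 (SE 1.06, edgeR FDR 0.0451). U2OS had the highest level of MMP9 (18.85 TPM), MMP16 (8.86 TPM) and MMP19 (8.71 TPM) among all 13 lines. MMP16, a membrane-type MMP, had a log2 fold change of -2.55 (SE 1.08, edgeR FDR 0.133). It was called lower without A673 (-3.74, FDR 0.0352), by DESeq2 (-2.55, FDR 0.0319) and by the same limma model (-3.44, FDR 0.00328). MMP15 and MMP17, both bound to the membrane, showed no such line, with ranges of 0.565 to 18.6 TPM and 1.098 to 13.05 TPM. MMP25, a membrane-anchored enzyme of neutrophils, had a log2 fold change of 1.32 (SE 0.56, edgeR FDR 0.129), and its highest line was SKES1 (2.34 TPM). MMP21 and MMP28 stayed at 1.30 TPM or less.

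The other inhibitors were not called between the tumour types by edgeR. TIMP1, which is secreted by most cells and was the most abundant TIMP of 9 of the 13 lines, ran from 12.2 TPM in EW3 over a median of 224 TPM to 1286 TPM in TC71, and from 189 TPM in HOS-MNNG over a median of 651 TPM to 1242 TPM in U2OS. Its log2 fold change was -0.78 (SE 0.78, edgeR FDR 0.544), and -1.65 (FDR 0.143) without TC71. The limma model called TIMP1 lower (-1.64, SE 0.57, FDR 0.0352). TIMP3, the inhibitor that binds to the matrix, was led by G292 (609.8 TPM) and MHHES1 (204 TPM) and had a log2 fold change of -1.37 (SE 0.73, edgeR FDR 0.231), which was -0.22 (FDR 0.839) without G292. TIMP4 was led by A673 (44.5 TPM), KHOS (14.2 TPM) came next, and its log2 fold change of 0.70 (SE 1.33, edgeR FDR 0.768) was -1.43 without A673.

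Summed over the family, MMP TPM ran from 22.4 (TC71) to 339 (A673) with a median of 136 in Ewing sarcoma lines, and from 120.1 (HOS-MNNG) to 1742 (MG63) with a median of 617 in osteosarcoma lines. MMP2 or MMP14 was the leading MMP in every line but A673, where MMP1 made up 64.7% of the sum. The summed TIMP to MMP ratio was 59.0 in TC71, which combined the highest TIMP1 with the lowest MMP2 and MMP14. It was under 1 in EW3 (0.652) and MG63 (0.67) and between 1.17 and 4.85 in the other 10 lines. These are ratios of RNA levels per length and not of protein or activity.

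**Figure D4:**
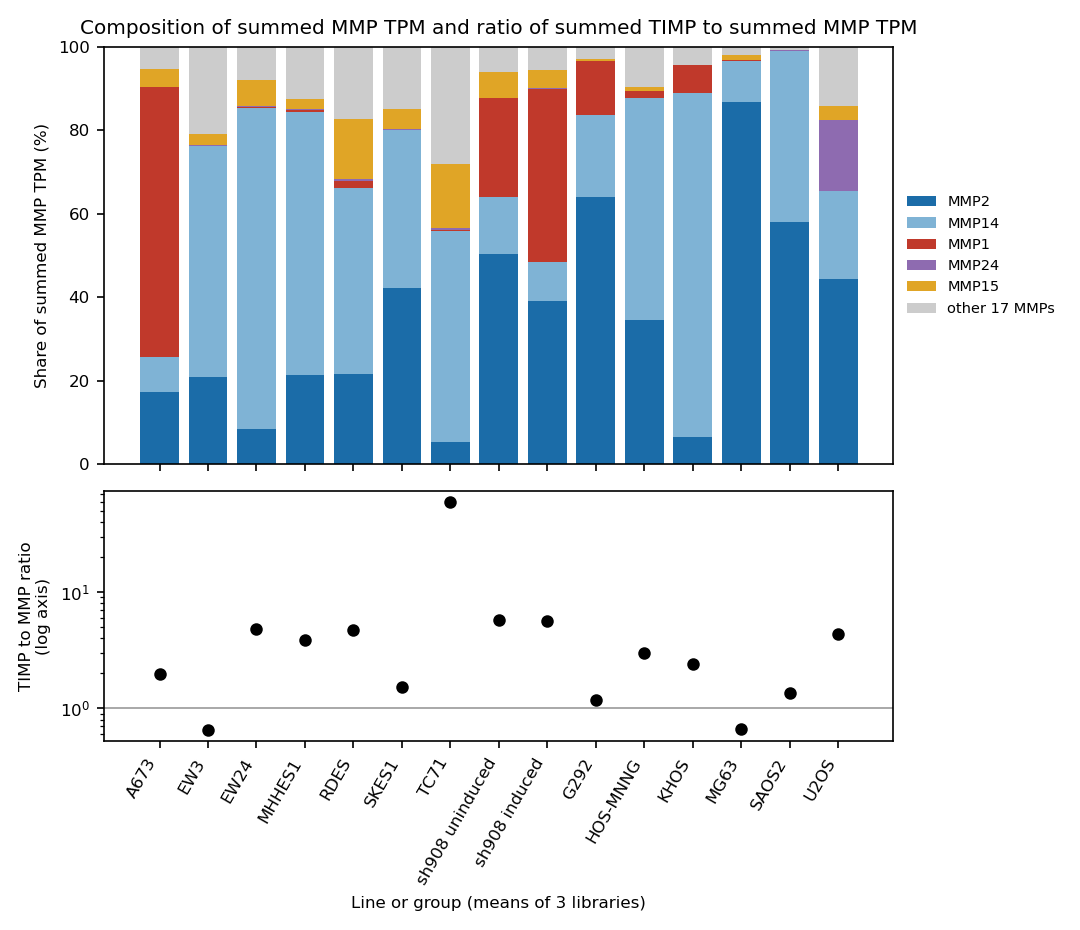
Top, share of summed MMP TPM held by MMP2, MMP14, MMP1, MMP24, MMP15 and the other MMPs in each line and sh908 group (bars, mean of 3 libraries). Bottom, ratio of summed TIMP to summed MMP TPM on a log axis. MMP1 dominates A673 alone among the lines, and TC71 stands at a ratio of 59.0.

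Genes that work with these proteases were read from the same fit. Of 24 tested partners of the plasminogen and MMP system, 6 were lower in Ewing sarcoma and 1 was higher, with a median log2 fold change of -1.20. The shares over all genes were 8.4% lower and 5.96% higher, with a median of -0.06, for this list and both lists that follow. The thrombin receptor THBD (-8.11) and CD44 (-7.78), a docking protein for MMP9 and MMP14, were the largest decreases, and CPB2 (5.69), which trims fibrin to slow plasmin, was the increase. THBD held 40 counts over the Ewing sarcoma lines and 8368 over the osteosarcoma lines, and CPB2 held 2658 and 38.45. Both were tested mainly through the tumour type where they were high, so they are not read against these shares.

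Of 12 AP-1 and ETS factors, 4 were lower in Ewing sarcoma and 0 higher, with a median of -2.21. They were FOSL1 (-5.73, SE 1.11, edgeR FDR 0.005035), FOSB (-4.51), FOSL2 (-3.85) and JUN (-2.19). FOSL1 ran from 0.602 TPM (EW24) to 22.6 TPM (A673) in Ewing sarcoma and from 42.2 TPM (SAOS2) to 549 TPM (KHOS) in osteosarcoma lines. A673 was the highest Ewing sarcoma line for FOSL1, PLAU, PLAUR and MMP1 alike. Across lines, FOSL1 and PLAU correlated with r of 0.969 in 7 Ewing sarcoma and 0.564 in 6 osteosarcoma lines, and FOSL1 and MMP1 with r of 0.839 and 0.814. Without the 2 farthest lines the osteosarcoma r of FOSL1 and PLAU was 0.01. In all, 9 gene pairs were computed in this way. Of 26 tested ADAM and ADAMTS proteases, 11 were lower, with ADAM12 (-8.31), ADAM33 (-7.41) and ADAMTS5 (-6.42) first, and 1 was higher, the aggrecanase ADAMTS4 (4.40). Their median was -2.25. ADAM33 held 77.35 counts over all Ewing sarcoma lines, so its fold change rests on few reads there.

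With doxycycline the sh908 cells showed no call for any of the 20 tested genes by edgeR without the replicate number as a block, where 0.0% of 14252 genes were called, and 0 of the 20 had an unadjusted p under 0.05. At an unadjusted p under 0.05, 94 of all genes passed, and DESeq2 called 2 genes, none of them among the 20. The comparison asked how the genes respond when the hairpin against KCNN1 is switched on. With same-numbered libraries as pairs, 6 of the 20 had an unadjusted p under 0.05, as did 13.2% of all genes. In that fit MMP1 was the 1 gene of 20 called, and it rose, against 0.253% of all genes called higher, 0.26% lower and 0.512% in either direction. Uninduced replicates 1, 2 and 3 held 69.2, 39.4 and 20.8 TPM of MMP1, and their induced counterparts 132, 81.0 and 35.6 TPM. Every pair was higher with doxycycline, while the groups as a whole overlapped. The log2 fold change was 0.95 (SE 0.09, edgeR FDR 0.00156) with the block and 0.985 (SE 0.75, FDR 1.0) without it. Every SE and FDR with the block rests on the pairing by number. Correlations between the libraries do not separate numbers 1 and 2, and the other pairing of these was not tested. Without the pair of replicate 3 the call held, at 0.997 (FDR 0.00342), and without the pair of replicate 1 (FDR 0.0611) or 2 (FDR 0.0539) it did not.

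KCNN1 had a log2 fold change of -1.46 (SE 0.13, edgeR FDR 0.00132) with the block and -1.53 (SE 0.52, FDR 1.0) without it. FOSL1 was 21.8, 13.9 and 2.17 TPM in uninduced and 45.7, 36.99 and 4.30 TPM in induced libraries, and rose by 1.24 (SE 0.12, edgeR FDR 0.00138) with the block. ETV4 (0.66) and the proprotein convertase FURIN (0.57), which activates pro-MMP14, rose as well with the block, and none of the 3 was called without it. FOSL1 and MMP1 were both lowest in replicate 3 of either group. No other gene of the 20 was called. MMP2 measured 66.3, 63.5 and 145 TPM in uninduced and 43.3, 50.4 and 139 TPM in induced libraries. It was lower in each pair, with a log2 fold change of -0.30 with the block (SE 0.11, edgeR FDR 0.273). TIMP1 was 765, 854 and 756 TPM in uninduced and 779.8, 1039 and 826 TPM in induced libraries. It was higher in each pair and not called, with a log2 fold change of 0.16 with the block (SE 0.09, edgeR FDR 0.473). PLAU had 4.13, 0.0226 and 2.37 TPM in uninduced and 5.67, 3.55 and 1.67 TPM in induced libraries, so that 1 uninduced library was almost without PLAU reads.

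**Figure D5:**
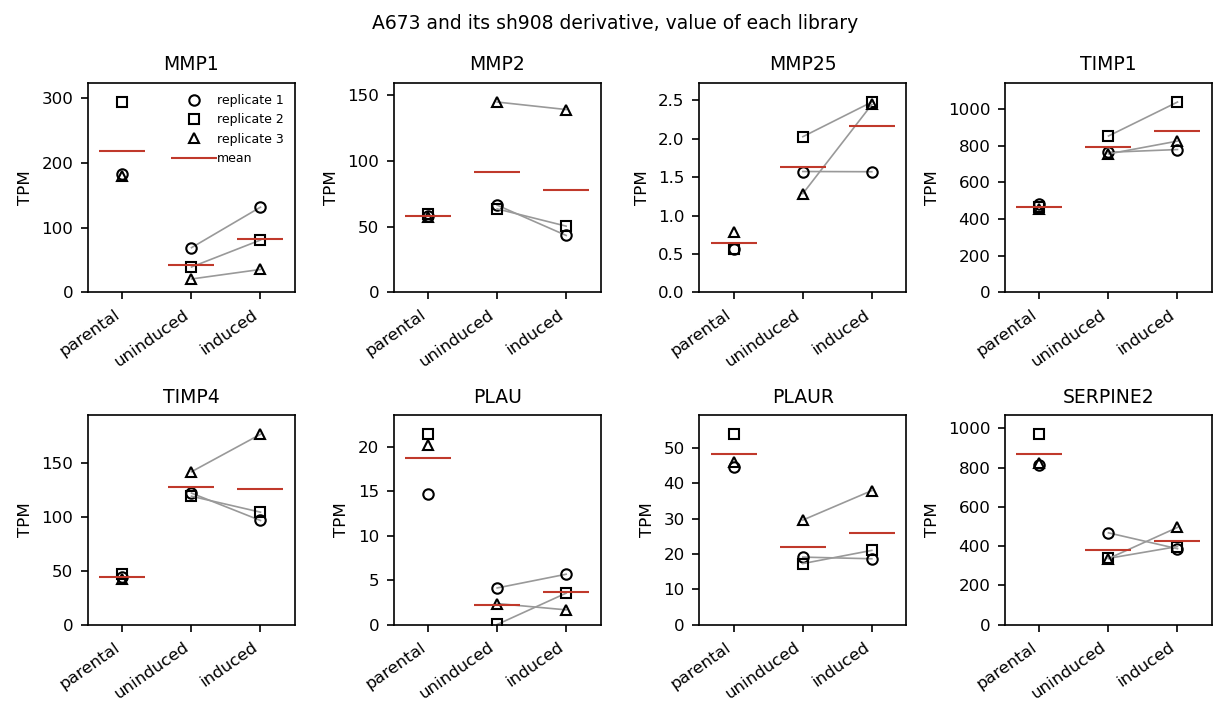
TPM of 8 genes in each library of parental A673, uninduced sh908 and induced sh908 cells; grey lines join same-numbered sh908 libraries and red bars are means. MMP1 goes up in each of 3 pairs with doxycycline, while all uninduced libraries lie below parental A673 for MMP1, PLAU, PLAUR and SERPINE2 and above it for MMP2, MMP25, TIMP1 and TIMP4.

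The uninduced sh908 cells were set against parental A673 to show how far the derivative differed from its parent before induction. The replicate numbers of these groups do not pair the libraries. The 2 comparisons that use the uninduced libraries share them. Of 21 tested genes, TIMP4, TIMP1, MMP2 and MMP25 were higher and PLAUR was lower, where 8.71% of 15778 genes were called higher, 6.42% lower and 15.1% in either direction. The median log2 fold change was -0.22 over the 21 genes and 0.01 over all genes tested. TPM values ran lower in the sh908 libraries, with a median log2 ratio of -0.40 over 10234 genes of at least 5 TPM, so the TMM-scaled fold changes here lie above the TPM ratios: larger for genes that were higher and smaller in size for genes that were lower. The libraries also differed in other measures. The median difference between the annotated and the deposited effective length of long transcripts, which follows the fragment length, was 140.5 to 157.7 bases in uninduced and 179.6 to 189.8 bases in parental libraries. Uninduced replicates 1, 2 and 3 had 64234, 59654 and 80443 transcripts with a count, against 80254 to 87620 in parental libraries. The part of these differences in the calls was not tested beyond an effective length offset, which changed no call of the 30 genes without the block.

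TIMP4 measured 44.1, 47.1 and 42.4 TPM in parental and 122, 119 and 142 TPM in uninduced sh908 cells. These groups do not overlap, and the log2 fold change was 2.02 (SE 0.16, edgeR FDR 0.0047). TIMP1 was 480.1, 465.7 and 453 TPM in parental cells and 765, 854 and 756 TPM in uninduced cells (log2 fold change 1.33, SE 0.23, edgeR FDR 0.0179). Parental MMP2 was 57.98, 59.6 and 57.6 TPM and the uninduced libraries were all above it, replicate 3 by the most (1.03, SE 0.19, edgeR FDR 0.0207). MMP25 was 0.564, 0.57 and 0.788 TPM in parental and 1.57, 2.03 and 1.29 TPM in uninduced cells (2.05, SE 0.40, edgeR FDR 0.0223). PLAUR was 44.7, 53.8 and 45.9 TPM in parental and 19.1, 17.3 and 29.6 TPM in uninduced cells (-0.71, SE 0.16, edgeR FDR 0.0305). For 3 against 3 libraries the smallest exact permutation p is 0.1, which these 5 genes and uncalled ones such as MMP15 and PLAT all had.

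MMP1, PLAU and SERPINE2, each highest in A673 among the Ewing sarcoma lines, were at lower values in its derivative without passing the test. MMP1 averaged 219 ± 65.2 TPM in parental and 43.1 ± 24.4 TPM in uninduced cells (SD, n = 3 each), without overlap (log2 fold change -1.77, SE 0.56, edgeR FDR 0.077). PLAU averaged 18.8 ± 3.57 and 2.17 ± 2.06 TPM (-2.64, SE 0.96, edgeR FDR 0.11), and SERPINE2 869.7 ± 86.9 and 381 ± 75.3 TPM (-0.68, SE 0.29, edgeR FDR 0.149). With 1 library left out, the PLAU value ran from -3.77 to -2.07. DESeq2 called 5 of the 21 lower, MMP1 (FDR 0.00818), PLAU (FDR 0.0288), MMP10, MMP12 and PLAUR, and 4 higher. Of all genes DESeq2 called 11.9% lower, 14.5% higher and 26.4% in either direction. MMP12 had 17, 24 and 11 counts in parental and 2, 0 and 0 in uninduced libraries. It was tested only through the parental libraries, so its call is not read against these shares, and it also counts in the median over the 21 genes. MMP2 was above MMP1 in uninduced replicates 2 and 3 and in induced replicate 3, and below it in uninduced replicate 1 and induced replicates 1 and 2. Among the related genes, where 8.71% of all genes were higher and 6.42% lower, 2 of 12 AP-1 and ETS factors were lower, JUN (-1.20) and ETS1 (-0.96). Of 19 partners the tissue factor gene F3 (-1.16) was lower and the plasminogen receptor PLGRKT (0.93) higher. Of 20 ADAM and ADAMTS proteases 3 were lower, ADAMTS15 (-2.02), ADAM9 (-1.13) and ADAM17 (-0.64), and ADAM23 (4.43) was higher. Of 6 Ewing sarcoma markers tested, 2 were higher and 0 lower. These calls depend on single libraries: leaving out any 1 of the parental libraries left 0 of the 30 genes called, with 4, 2 and 8 genes called in all, and leaving out uninduced replicate 3 gave 6 higher and 5 lower. Leaving out uninduced replicate 1 gave 3 higher and 2 lower, and leaving out replicate 2 gave 1 higher and 0 lower. MMP12 was among the lower genes without uninduced replicate 1 and without uninduced replicate 3.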

How the data were processed

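Poly(A) RNA was extracted with NucleoSpin RNA Plus and made into TruSeq Stranded mRNA libraries, per the labels' protocols. Reads were trimmed with fastp 0.19.5 and quantified with kallisto 0.46.2 against hg38 (GRCh38.p14), per the submitters' processing notes; which kallisto settings were used is not given in the sources used here. The deposited tables hold, per the file headers, estimated counts and TPM for 177816 transcripts each, of which 95.59% were joined to RefSeq genes by accession; the rest held 0.91 to 1.6% of counts.

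Counts were summed per gene and rounded, then tested with edgeR 4.0.16 in R 4.3.3 (filterByExpr, TMM, robust quasi-likelihood, Benjamini-Hochberg over all genes), with the 3 libraries of a line summed for the tumour types. Levels are deposited TPM, and exact permutation tests used log2(TPM + 1). DESeq2 1.42.0 and limma 3.58.1 served as alternatives, with other scaling, no filter, left-out libraries or lines, and a replicate block. The fit was checked on simulated counts. Same-numbered induced and uninduced libraries deviated together (r of 0.683, 0.582 and 0.881), so the numbers were taken as pairs there. Replicates 1 and 2 correlated about as well with each other's number (0.608 and 0.517) as with their own, and replicate 3 correlated with the other numbers at -0.78 to -0.66, so these values set replicate 3 apart and do not separate numbers 1 and 2. Values by line or library are given for genes called in any comparison or reaching 100 TPM in a line, and related genes are named as the 3 largest calls per direction and list beside FOSL1; fold changes of MMP11 and MMP16 were added after their values were seen, and a result on one further gene is not reported here. The 30 genes and the related lists were chosen with earlier results of these data known.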

Additional observations from a re-analysis of the deposited data

Results flagged for a closer look

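In 42 groups of line means, log2(TPM + 1) was checked with Dixon's test for a line far from the others, and 10 were found. The test's rate of 1 in 20 assumes normal values. Many values here lie near 0 TPM and the groups share lines, so the 10 are not read as more than chance. Among the Ewing sarcoma lines, A673 stood above the rest for MMP1 (219.1 TPM, next RDES with 2.184 TPM), MMP3 (1.564 TPM, next MHHES1 with 0.1754 TPM), MMP10 (3.227 TPM, next EW3 with 0.274 TPM) and MMP16 (1.987 TPM, next TC71 with 0.4419 TPM). MMP1, MMP3 and MMP10 are neighbours on chromosome 11. EW3 stood above the rest for MMP7 (5.086 TPM, next EW24 with 0.02337 TPM), and TC71 stood below the rest for TIMP2 (18.35 TPM, next EW3 with 61.47 TPM). Among the osteosarcoma lines, U2OS stood above the rest for MMP9 (18.85 TPM, next KHOS with 1.079 TPM), MMP19 (8.713 TPM, next G292 with 1.116 TPM) and MMP24 (58.86 TPM, next SAOS2 with 1.715 TPM). G292 stood above the rest for MMP13 (22.47 TPM, next HOS-MNNG with 1.835 TPM).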

How the results depend on the processing

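Of the values for single genes, 603 kept their direction and their side of the threshold under an alternative, 46 lost the call, 18 gained one and 17 changed sign. Between the tumour types DESeq2 called 5404 genes, and leaving out 1 line gave 2296 to 3177 genes, 0 to 1 of the 30 genes higher (MMP11, without G292) and 5 to 9 lower. MMP13 is counted among the lower genes wherever it was tested. Leaving out a line moved the log2 fold change of MMP1 from -6.24 to 2.02, of TIMP4 from -1.43 to 1.67 and of SERPINE2 from -2.07 to 0.84. TIMP4 was also at -1.36 with DESeq2, near its edgeR value without A673. It was at -0.31 in limma with the line as a random effect and the replicate block.

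For doxycycline, the replicate block called 73 genes, 49 with an effective length offset, 178 with DESeq2, and 10, 7 and 167 without the pair of replicate 1, 2 or 3; MMP1 was the 1 gene of the 30 called under the first 3 of these and the last. DESeq2 without the block called 2 genes. Leaving out 1 library moved MMP25 from -0.0266 to 0.57, TIMP1 from -0.0582 to 0.36, TIMP3 from -0.31 to 0.59 and TIMP4 from -0.16 to 0.0211. SERPINE2 moved from -0.0796 to 0.43. With the block, TIMP3 was -0.0515 without pair 2, TIMP4 was 0.07002 and 0.0634 without pair 1 and 2, and SERPINE2 was -0.005364 without pair 3. All of these were uncalled.

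For uninduced against parental cells, same-numbered libraries correlated at 0.045, 0.087 and 0.25, and parental replicates 1 and 2 did not correlate best with their own number. The replicate block called 319 genes, 1 of the 30 higher (TIMP4) and 0 lower; with a length offset it called 201, again 1 higher and 0 lower. Without replicate 1, 2 or 3 of both groups the block called 205, 345 and 8250 genes, with 1, 1 and 6 of the 30 higher and 1, 2 and 4 lower. With DESeq2, 4169 genes were called without the block and 5 of the 30 were lower, against 2 lower with it. MMP12, tested only through the parental libraries, was 1 of the 5 and had no adjusted p with the block. It was also among the 4 lower without replicate 3 of both groups. Leaving out 1 library gave 2 to 10202 genes, 0 to 6 of the 30 higher and 0 to 5 lower. The block with DESeq2, the length offsets and the left-out pairs of this comparison were chosen after seeing the data. The cause of these differences was not tested. Low counts limit MMP8, MMP12, MMP20, MMP21, MMP26 and MMP27, which stayed under 1 TPM in all lines.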

Other observations

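The number of MMPs at 1 TPM or more was 11 in both A673 and G292 and 4 in both EW24 and SAOS2, the ends of the range over the 13 lines. The share of summed MMP TPM held by MMP2 and MMP14 together was 98.9% in SAOS2 and 96.6% in MG63, and 25.8% in A673. TIMP1 made up 97.3% of TIMP TPM in TC71, while TIMP2 was the leading inhibitor in SAOS2 (65.1%), MG63 (50.6%) and EW3 (48.4%), and TIMP3 in MHHES1 (38.4%).

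Transcript shares of PLAUR differed between lines. NM_002659.4 held 75.0% to 83.5% of PLAUR TPM in the 6 osteosarcoma lines and 54.9% to 74.1% in the 7 Ewing sarcoma lines. The predicted transcript XM_017026872.3 held 31.98% in RDES, 28.9% in SKES1, 16.7% in EW24 and 14.8% ± 18.3 (SD, n = 3) in TC71. This split of reads among overlapping transcripts is an estimate by the authors' quantifier and was not tested.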
